A study of Drosophila melanogaster with 2 samples.

Results

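Of the 3314 reproducible binding sites of the zinc-finger protein CG30431 in fruit fly embryos, 313 (9.44%, 95% exact interval 8.47 to 10.5) lay at core promoters whose annotated starts ran on one strand. A site was taken by 2 measures of its summit, the position of highest signal within the peak. Every annotated transcript start within 500 bp of the summit lay on the same strand, and the nearest of them was at most 150 bp away. The signal and the sequence had no part in this choice. The sites were compared with the 591 one-strand sites whose nearest start lay between 150 and 500 bp away, and with the 562 promoter sites that had starts on both strands within 500 bp. "Core promoter" here means closeness to an annotated start, since no transcript was measured.

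The sites come from chromatin immunoprecipitation followed by sequencing (ChIP-seq) of whole Drosophila melanogaster embryos, aged 0 to 24 h, with both sexes pooled. The flies stably carried an insertion that expresses CG30431 fused at its C-terminus to green fluorescent protein (GFP), and the fusion protein was pulled down through the GFP tag. All embryos belonged to this 1 group, with 2 biological replicates from 1 transgenic line, so no condition was compared, and stages and tissues were mixed within each replicate. Each peak carries the authors' signal value, a height whose scale is not stated, and the lists hold no read counts, so the depth of either replicate is unknown.

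CG30431 belongs to a large insect family of zinc-finger proteins with a zinc-associated domain, several of which bind promoters or the boundaries of chromosome domains. In flies, core promoters fall broadly into classes by the short sequences they hold. Promoters of broadly active genes often carry the DNA replication-related element (DRE), Motif 1, Motif 6 or Motif 7, and ribosomal protein promoters start in a pyrimidine-rich TCT sequence. Promoters of developmentally controlled genes more often carry a TATA box, an initiator (Inr) or a downstream promoter element (DPE). Where 2 genes lie head to head, starts on both strands share the region between them. At one-strand sites no start on the opposite strand was annotated within the window used, though other starts on the same strand can lie there.

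Examples of sites that hold the CACTG-based 8-base sequences are shown first, because these sequences were more frequent at core one-strand sites than at sites with starts on both strands. They are not in every case the strongest sites with the sequence. Each stretch is given 5′ to 3′ along transcription of the nearest gene, on dm6, from the RefSeq copy of the genome, and runs from just before the summit to shortly after the annotated start. Positions are counted from the start, whose first base is 1. Capitals mark CACTGTGC in RluA-1 (chr2L:10474340-10474506, minus strand, element at -76 to -69) and in PAN3 (chr3L:3081442-3081577, plus strand, -55 to -48). They mark TCTCAGTG in out (chrX:19322097-19322259, minus strand, -83 to -76) and in CG11857 (chr3R:25258824-25258927, plus strand, 23 to 30), where it reads against transcription and so appears as its reverse complement. In CG7379 (chr3R:17798295-17798397, minus strand, -81 to -74) they mark TCAGTGTA.
RluA-1: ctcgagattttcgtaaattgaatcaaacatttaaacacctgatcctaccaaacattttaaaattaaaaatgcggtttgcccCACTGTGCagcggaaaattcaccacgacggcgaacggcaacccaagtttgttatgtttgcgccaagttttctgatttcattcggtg
PAN3: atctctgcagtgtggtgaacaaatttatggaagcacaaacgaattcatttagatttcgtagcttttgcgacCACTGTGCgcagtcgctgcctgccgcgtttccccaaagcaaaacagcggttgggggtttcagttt
out: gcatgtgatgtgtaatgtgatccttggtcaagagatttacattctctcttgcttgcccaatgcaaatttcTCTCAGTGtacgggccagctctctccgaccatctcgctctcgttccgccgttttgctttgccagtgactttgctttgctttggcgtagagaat
CG11857: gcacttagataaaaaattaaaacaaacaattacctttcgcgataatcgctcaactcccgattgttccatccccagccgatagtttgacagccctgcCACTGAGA
CG7379: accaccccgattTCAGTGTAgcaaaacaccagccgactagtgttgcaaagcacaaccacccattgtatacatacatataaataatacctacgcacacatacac

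The second set shows 1 example of each of several core promoter elements at core one-strand sites. Capitals mark a DRE in eEF1gamma (chr3R:29220119-29220181, plus strand, -41 to -34) and Motif 1, read against transcription, across the start of Cnx99A (chr3R:29319635-29319721, minus strand, -6 to 3). They mark a TCT sequence in RpL23A (chr3L:1668645-1668745, minus strand, 3 to 8), an Inr in CG13921 (chr3L:1746787-1746916, plus strand, 3 to 8) and a TATA box in lncRNA:CR31044 (chr3R:29214443-29214571, plus strand, -33 to -28). The site at Ugalt (chrX:2703843-2703902, minus strand), the strongest of all, is shown with the base at its summit in capitals (-38).
eEF1gamma: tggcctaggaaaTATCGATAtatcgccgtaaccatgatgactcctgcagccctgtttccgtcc
Cnx99A: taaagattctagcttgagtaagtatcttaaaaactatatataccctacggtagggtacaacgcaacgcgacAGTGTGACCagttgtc
RpL23A: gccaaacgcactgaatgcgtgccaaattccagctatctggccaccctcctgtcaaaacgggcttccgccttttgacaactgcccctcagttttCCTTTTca
CG13921: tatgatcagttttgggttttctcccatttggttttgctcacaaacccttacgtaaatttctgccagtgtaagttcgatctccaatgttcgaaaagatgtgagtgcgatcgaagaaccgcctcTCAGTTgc
lncRNA:CR31044: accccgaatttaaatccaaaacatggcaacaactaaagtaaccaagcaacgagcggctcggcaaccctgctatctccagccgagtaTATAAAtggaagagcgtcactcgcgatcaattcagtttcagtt
Ugalt: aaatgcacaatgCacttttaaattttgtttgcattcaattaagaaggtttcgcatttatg

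Core one-strand sites lay at protein-coding genes more often than one-strand sites farther from a start. The nearest gene was protein-coding at 294 of 313 sites (93.9%, exact interval 90.7 to 96.3), against 506 of 591 farther sites (85.6%, 82.5 to 88.3). The odds ratio was 2.60, with p = 0.00186 by a two-sided Fisher's exact test after adjustment over 11 comparisons of shares. With the start at most 100 bp away, which left 183 sites, the odds ratio was 1.58 and the call was lost (adjusted Fisher's exact p = 0.149). Peaks of 1 list are not replicates, so these tests compare classes of sites within the list and not embryo collections.

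The 313 sites belonged to 313 distinct starts and 309 genes. Of the nearest genes, 18 made non-coding RNAs and 1 a small nucleolar RNA. In 206 cases the summit had 1 annotated start within 500 bp, in 86 cases 2, in 18 cases 3 and in 3 cases 4. A total of 170 summits lay between genes, 64 in a 5′ exon of the nearest gene outside its coding sequence and 54 in an intron of that gene. Introns of another gene held 13 summits, exons of another gene 10 and coding exons 2. By chromosome arm there were 82 sites on 3R, 67 on 3L, 57 on 2L, 54 on X and 53 on 2R.

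A pair of core one-strand sites lay at different starts of the same gene for 4 genes. At gro (Groucho, a transcriptional co-repressor) the site 122 bp upstream of one start had a signal of 452 in the pooled list, 269 in replicate 1 and 180 in replicate 2. The site 84 bp upstream of another gro start had 127, 75.7 and 49.0. At RapGAP1, an activator of the GTPase activity of Rap1, the sites lay 108 and 125 bp upstream with pooled signals of 464 and 78.0, and both windows held CACTGTGC and CCACTGTG. The cindr sites, at an adaptor protein gene, had pooled signals of 210 and 87.4, and the drn sites 216 and 103.

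Summits lay mostly upstream of the start. There were 256 upstream (81.8%, exact interval 77.1 to 85.9), 56 downstream and 1 at the start base, with a median of -75 bp. The middle of the distribution, between its quartiles, ran from -117 to -29 bp, and the 20 positions from -130 to -111 held more summits (54) than any other bin of that width. The limit of 150 bp cuts this distribution, and with a limit of 200 bp there were 450 sites. The median, quartiles and fullest bin therefore describe summits within the limit and do not show a preferred position. The upstream share was 84.1% at one-strand sites farther from a start (adjusted Fisher's exact p = 0.732) and 81.7% at sites with starts on both strands (adjusted Fisher's exact p = 1). Neither difference was detected. With the start at most 100 bp away, fewer core summits were upstream than at the farther sites (odds ratio 0.529, adjusted Fisher's exact p = 0.0282). Against the farther sites the direction depends on the window that decides the strand: the odds ratio of an upstream summit was 0.849 with 500 bp, 0.404 with 300 bp (adjusted Fisher's exact p = 0.000466) and 1.75 with 1000 bp (adjusted Fisher's exact p = 0.00834).

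**Figure D1:**
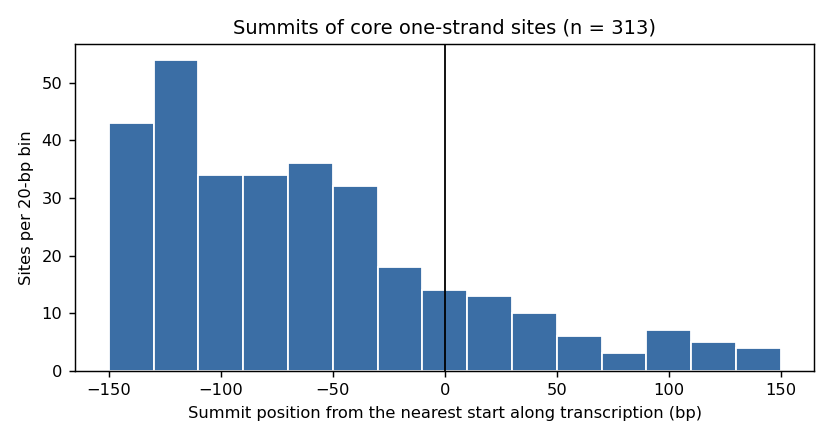
Number of core one-strand sites (y axis) by the position of their summit from the nearest annotated start along transcription (x axis, bp, in bins of 20 bp). The bins upstream of the start are fullest, with 54 sites from -130 to -111, and the counts past the start are low. The choice of sites ends the range at 150 bp on each side.

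The 2 sites just inside the limit of 150 bp were at spi, the gene of the epidermal growth factor receptor ligand Spitz (150 bp upstream, pooled signal 461, 270 and 186 in replicates 1 and 2), and at scb, an integrin subunit gene (150 bp upstream, 252, 133 and 118). Just outside lay CG10660 (152 bp upstream, 180, 102 and 78.9) and pnut, a septin gene (152 bp downstream, 108, 64.5 and 49.4).

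The signal of core one-strand sites covered the range of the whole list and was not detectably different from that of other promoter sites. In the pooled list the values ran from 70.9 to 1800, with quartiles of 96.1 and 221 and a median of 127. The median was 143 at one-strand sites farther from a start and 136 at sites with starts on both strands. Above the median of all 3314 peaks lay 168 of 313 core sites (53.7%), against 58.7% of the farther sites (odds ratio 0.815, adjusted Fisher's exact p = 0.580) and 57.1% of the sites with starts on both strands (odds ratio 0.870, adjusted Fisher's exact p = 0.732). The same test in the values of replicate 1 gave 52.9%, against 59.0% and 55.6% (adjusted Fisher's exact p of 0.4927 and 0.751), and in replicate 2 gave 56.3%, against 59.7% and 58.1% (0.732 and 0.847). With the start at most 100 bp away the odds ratio against the farther sites was 0.656 (adjusted Fisher's exact p = 0.0336), and with a strand window of 300 bp it was 0.679 (adjusted Fisher's exact p = 0.0286), so in these settings fewer core sites were above the median.

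By position the median pooled signal was 145 for the 118 summits from -150 to -101 and 126 for the 83 summits from -100 to -51. It was 116 for the 55 summits from -50 to -1, 125 for the 34 from 0 to 50 and 105 for the 23 from 51 to 150. Across the 313 sites Spearman's rho of position and signal was -0.157, given as a description, since the sites share libraries and differ in base composition.

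Both replicates held most core one-strand sites among their strongest peaks. A summit inside one of the 3314 strongest peaks of both replicates was found for 258 of 313 sites (82.4%, exact interval 77.8 to 86.5), for 81.6% of the farther sites and for 81.3% of the sites with starts on both strands (adjusted Fisher's exact p = 0.865 for each). No core site lay among the strongest of neither replicate. The median signal was 74.3 in replicate 1 and 56.7 in replicate 2, and the median ratio of the replicates was 1.31, against 1.34 over all peaks. More than 1 log2 unit from that overall ratio lay 8 of the 310 core sites with a value in both (2.58%), against 4.47% of all peaks. The site at RpL27, with 64.9 in replicate 1 and 20.1 in replicate 2, was among these. No replicate 1 entry held the summit at P58IPK, and no replicate 2 entry held those at CG15890 and ana. Because the replicate lists went into the reproducible list, finding its sites in them is no independent check.

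**Figure D2:**
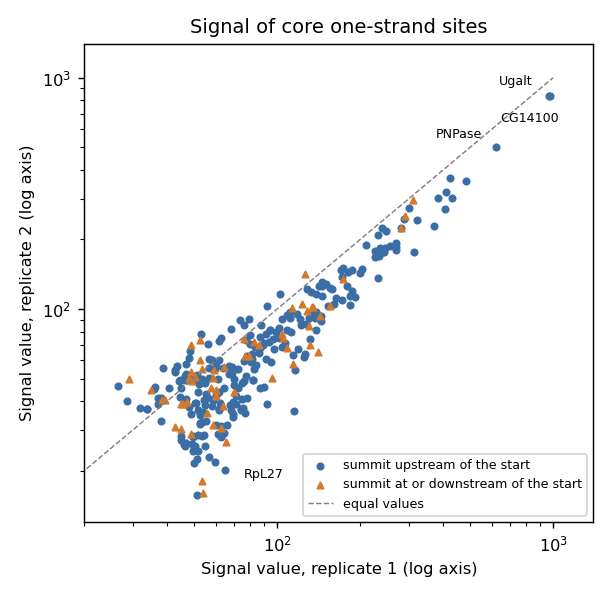
Signal value of each core one-strand site in replicate 1 (x axis, log scale) and replicate 2 (y axis, log scale), in the authors' units. Circles are summits upstream of the start and triangles are summits at or downstream of it, and most points lie below the dashed line of equal values, as the median ratio of 1.31 states.

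The strongest core one-strand sites belonged to genes of varied function. The sites at Ugalt, which encodes a Golgi transporter of UDP-galactose, and at CG14100 ranked first and second in the whole list and in each replicate, and PNPase, a mitochondrial polynucleotide phosphorylase gene, ranked eighth. A total of 17 core sites were among the 100 strongest peaks. The summit at Ugalt lay on X at 2703890 (peak 2703705 to 2704063), that at CG14100 on 3L at 19590633 (19590453 to 19590795) and that at PNPase on 3R at 31404643 (31404497 to 31404818). The windows of Ugalt and PNPase held none of the listed elements other than runs of A and T, and that of CG14100 held CACTG and the BEAF-32 core.

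Several of the next strongest sites lay at genes of the secretory pathway. Alg3, a mannosyltransferase of N-glycan assembly, had a signal of 682 in the pooled list, 383 in replicate 1 and 302 in replicate 2. Fkbp14, a prolyl isomerase of the endoplasmic reticulum, had 667, 405 and 271. TRAM, a component of the protein translocation channel, had 533, 289 and 245. No list of secretory genes was counted, so this names single sites and not a theme.

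Among the others, mRpL41, a mitochondrial ribosomal protein gene, had 794 in the pooled list, 422 in replicate 1 and 370 in replicate 2. RluA-1, a pseudouridine synthase gene, had 597, 371 and 228. Hsp27, a small heat shock protein gene, had 575, 300 and 272. PAN3, a subunit of a deadenylase that shortens poly(A) tails, had 489, 313 and 176. The gene chn (charlatan, a zinc-finger transcription factor of the nervous system) had 549, 321 and 242, and GstE13, a glutathione transferase gene, had 543, 291 and 252. In pooled signal the remaining sites of the 20 strongest were CG13921 (839), lncRNA:CR31044 (729), CG18549 (729), lncRNA:CR31840 (605), CG9399 (510), Hpf1 (504), CG11857 (466) and RapGAP1 (464). All 20 ranked 158th or better in replicate 1 and 169th or better in replicate 2. The summit lay downstream of the start at lncRNA:CR31840 (21 bp), CG9399 (37 bp) and GstE13 (96 bp), and upstream at the other 17.

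Sequences containing CACTG occurred more often at core one-strand sites than at sites with starts on both strands. Sequence elements were counted on either strand within 100 bp of the summit, in windows of 201 bp. Of 16 elements, 8 differed between these classes (50%) by Fisher's exact tests adjusted over 32 comparisons, and 7 of the 8 were more frequent at core sites. CACTGTG lay in 39 core windows (12.5%, exact interval 9.01 to 16.6), against 4.80% (odds ratio 2.82, adjusted Fisher's exact p = 0.000648). The 8-mers CACTGTGC and CCACTGTG each lay in 25 core windows (7.99%), against 2.14% (odds ratio 3.98, adjusted Fisher's exact p = 0.000648) and 2.67% (3.17, 0.00223). TCTCAGTG lay in 13 core windows (4.15%), against 0.534% (odds ratio 8.07, adjusted Fisher's exact p = 0.00149), and TCAGTGTA in 9 (2.88%), against 0.534% (5.52, 0.0271). The short core CACTG itself lay in 51.8% of core windows, against 41.5% (odds ratio 1.51, adjusted Fisher's exact p = 0.0107), and CACTGA in 16.6%, against 11.4% (1.55, 0.0743). With the start at most 100 bp away CACTGTGC and CACTG were still called, but CACTGTG, CCACTGTG, TCTCAGTG and TCAGTGTA were not (adjusted Fisher's exact p from 0.0707 to 0.288). Among the 3314 strongest peaks of replicate 2 alone, CACTG and CCACTGTG were not called (odds ratios 1.32 and 2.18, adjusted Fisher's exact p of 0.134 and 0.0728).

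The positions of summits were alike in these classes, with medians of -75 bp at core sites and -78 bp at sites with starts on both strands. The elements overlap: CACTG is part of all the others named here, and 20 of the 25 windows with CACTGTGC also held CCACTGTG. The 8-mers had been picked on the whole peak list, core sites included, so their excess over other promoters is not independent evidence. With windows placed 75 bp before each start in both classes, the shares of CACTG, TCTCAGTG and TCAGTGTA no longer differed detectably (odds ratios 1.23, 2.35 and 2.73, adjusted Fisher's exact p of 0.203, 0.181 and 0.241). In windows of the same length centred 75 bp upstream of all 23697 distinct annotated starts, CACTGTGC occurred in 1.12%, CCACTGTG in 0.975%, TCTCAGTG in 0.616% and TCAGTGTA in 0.620%. Between core sites and one-strand sites farther from a start, none of these sequences differed detectably (for CACTGTGC 7.99% against 6.60%, odds ratio 1.23, adjusted Fisher's exact p = 0.517).

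At least one of the 4 8-mers lay in 47 core windows (15%), 77 farther windows (13%) and 24 windows with starts on both strands (4.27%). Core sites with an 8-mer had a median pooled signal of 157, and those without one 125. For CACTGTGC alone the medians were 214 and 126. These medians are descriptions, for groups formed after values of these data had been seen. Besides RluA-1 and PAN3, CACTGTGC lay at chn, RapGAP1, spi, RpL23A, CG42327 (pooled signal 396, 233 and 170 in replicates 1 and 2), CG8034 (395, 226 and 167) and Glyp, the glycogen phosphorylase gene (301, 180 and 126). TCTCAGTG lay at numb, a gene that restrains Notch signalling (pooled signal 419, 242 and 176), and at out, whose window also held an overlapping TCAGTGTA.

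CACTGTGC read along transcription in most of its core windows, and most of those matches lay between summit and start. In 18 core windows it read along transcription and in 6 against it, with 1 window holding both, so 75% of the windows with a single direction read along (exact interval 53.3 to 90.2). All 19 matches read along transcription lay downstream of the summit, and 15 of them between summit and start. Of the 7 matches read against transcription, 2 lay downstream of the summit, and 2 lay between summit and start. The matches were centred at a median of -55.5 bp from the start when read along, while the summits of those windows had a median of -116 bp. CCACTGTG, which shares most of these windows, read along in 17 windows and against in 7, and 17 of 18 matches read along lay downstream of the summit, with 14 between summit and start. TCTCAGTG read along in 8 windows and against in 5, and TCAGTGTA in 5 and 4. At lncRNA:CR44222 and CG14223, whose summits lay downstream of the start, the CACTGTGC read along transcription was farther downstream still. At one-strand sites farther from a start CACTGTGC read along in 23 windows and against in 15. There 23 of 24 matches read along lay downstream of the summit, 20 of them between summit and start. Of the 17 matches read against transcription, 1 lay downstream. At sites with starts on both strands 8 of 10 matches read along lay downstream of the summit, 7 between summit and start. The layout was therefore not particular to core sites. Direction and place were not tested.

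**Figure D3:**
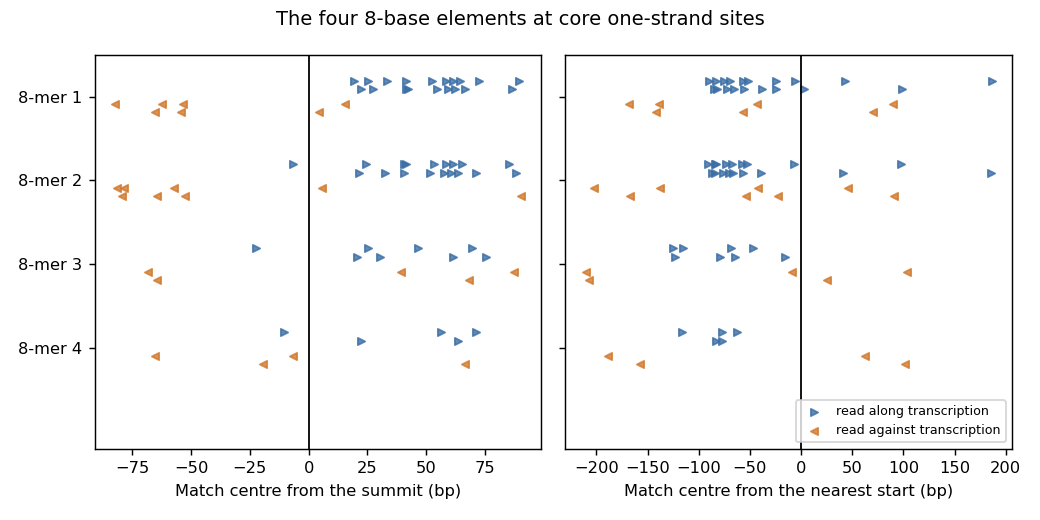
Centre of each match to the 4 8-mers at core one-strand sites, from the summit (left, x axis in bp) and from the nearest start (right, x axis in bp), both along transcription. Rows 8-mer 1 to 8-mer 4 are CACTGTGC, CCACTGTG, TCTCAGTG and TCAGTGTA, and arrows pointing right mark matches read along transcription, all 19 of which lie right of the summit for CACTGTGC.

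The binding sequence of GAGA factor, a chromatin-opening protein encoded by Trl, was more frequent at core one-strand sites than at sites with starts on both strands. GAGAGAG lay in 14 core windows (4.47%), against 2 of 562 windows with starts on both strands (0.356%, odds ratio 13.1, adjusted Fisher's exact p = 0.000648). At one-strand sites farther from a start it lay in 44 of 591 windows (7.45%), without a detected difference from core sites (odds ratio 0.582, adjusted Fisher's exact p = 0.149). It read against transcription in 10 of the 14 core windows. With 50 bp on each side of the summit the odds ratio was 3.61 and the call was lost (adjusted Fisher's exact p = 0.390). The strongest sites with it were CG11857, out, CG1907 (pooled signal 416, 244 and 176 in replicates 1 and 2) and Btk, a tyrosine kinase gene (344, 200 and 144). Over all annotated starts its share was 5.57%. Runs of 8 or more A or T bases were less frequent at core sites (88.8% against 95.4%, odds ratio 0.385, adjusted Fisher's exact p = 0.00205), and the median GC content of the windows was 38.3%, against 34.3%. The part of base composition in these differences was not tested. The core sequence of the insulator protein CTCF (AGNTGGCGC) lay in 10 core windows (3.19%), against 1.07% (odds ratio 3.06, adjusted Fisher's exact p = 0.0715).

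Elements of broadly active promoters were more frequent at core one-strand sites than at one-strand sites farther from a start. Of 16 elements 5 differed (31.2%), all more frequent at core sites. Motif 1 (GGTCACACT) lay in 9 core windows (2.88%), against 2 of 591 (0.338%, odds ratio 8.72, adjusted Fisher's exact p = 0.00626). The DRE (TATCGATA) lay in 17 core windows (5.43%), against 7 (1.18%, odds ratio 4.79, adjusted Fisher's exact p = 0.00161). CGATA, the core bound by the boundary protein BEAF-32 and part of every DRE, lay in 36.7%, against 23.7% (odds ratio 1.87, adjusted Fisher's exact p = 0.000648). Motif 7 (CATCNCTA) lay in 6.39%, against 2.20% (odds ratio 3.03, adjusted Fisher's exact p = 0.00756; 0.178 in the 3314 strongest peaks of replicate 2 alone), and the E-box CAGCTG in 11.5%, against 6.26% (1.95, 0.0188). Motif 7 and the E-box were not called with the start at most 200 bp away (adjusted Fisher's exact p of 0.0984 and 0.0811), and with 50 bp on each side of the summit Motif 7 and CGATA were not (0.193 and 0.0993). Motif 6 (GTATATTT or GTATTTTT) lay in 9.27%, against 6.94%, without a detected difference (odds ratio 1.37, adjusted Fisher's exact p = 0.358).

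The windows of the farther sites lie farther from the start, so in this comparison the class and the place of the window cannot be told apart. In windows of the same length centred 75 bp before the start of every site, added once the first counts were known, the DRE lay in 5.75% of core windows, against 1.52% (adjusted Fisher's exact p = 0.00292). CGATA lay in 34.8%, against 23.0% (adjusted Fisher's exact p = 0.00168), Motif 7 in 6.71%, against 2.54% (0.00904), and Motif 6 in 11.2%, against 3.55% (0.000166). Motif 1 no longer differed detectably (3.83% against 2.20%, adjusted Fisher's exact p = 0.256), nor did the E-box (13.7% against 14.2%, 0.95). GAGAGAG was less frequent at core starts there (6.07% against 19.97%, adjusted Fisher's exact p = 8.59e-08). Runs of 8 or more A or T bases lay in 86.9% of core windows there, against 64.6% (adjusted Fisher's exact p = 6.03e-12). The CTCF core lay in 3.51%, against 1.015% (adjusted Fisher's exact p = 0.0358). What base composition contributed to the differences in these start-set windows was not tested. Over all annotated starts the shares were 5.74% for the DRE, 35% for CGATA, 3.86% for Motif 7, 7.83% for Motif 6, 3.49% for Motif 1 and 12.4% for the E-box. Core summit windows held the DRE (5.43%), CGATA (36.7%), Motif 1 (2.88%) and the E-box (11.5%) at about these shares. Motif 6 (9.27%) and Motif 7 (6.39%) were above theirs. Differences from all starts were not tested.

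In summit windows none of Motif 1, DRE, Motif 6, Motif 7 or the E-box differed detectably between core sites and sites with starts on both strands; for Motif 7 the shares were 6.39% and 10.9% (odds ratio 0.561, adjusted Fisher's exact p = 0.0660). In the windows set by the start, several were less frequent at core sites. The DRE lay in 5.75% of these, against 10.5% (adjusted Fisher's exact p = 0.0358), CGATA in 34.8%, against 45.7% (0.00668), Motif 7 in 6.71%, against 13.2% (0.00823), and the E-box in 13.7%, against 21.5% (0.0114). Among the strongest 1657 peaks, which left 168 core sites, no element passed the adjusted test. There 3 of 16 elements against the farther sites and 6 of 16 against sites with starts on both strands had an unadjusted Fisher's exact p under 0.05. The odds ratios of the 5 and 8 elements called in the whole list stayed on the same side of 1.

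**Figure D4:**
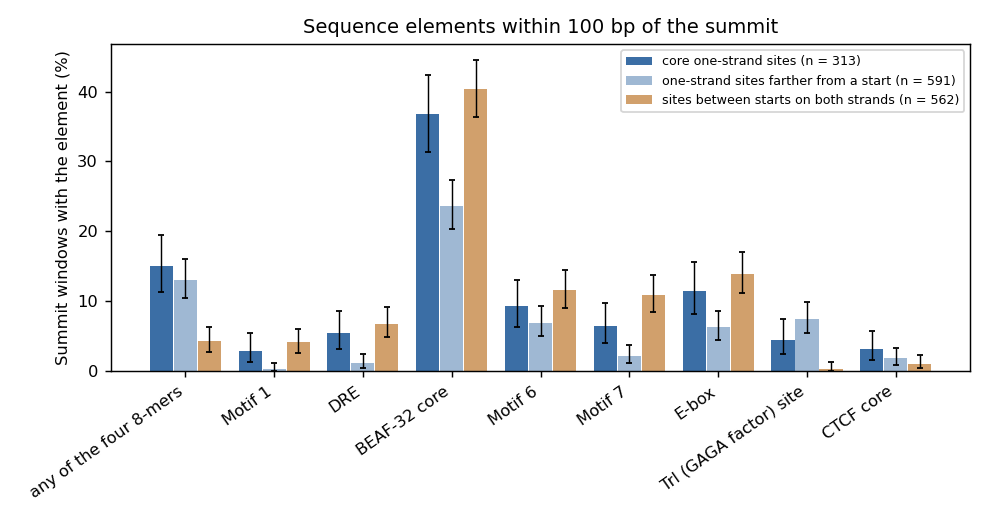
Share of 201-bp summit windows (y axis, %) that hold each element, at core one-strand sites, one-strand sites farther from a start and sites with starts on both strands; error bars are 95% exact binomial intervals. The 8-mers are at 15%, 13% and 4.27% in these classes, and the DRE at 5.43% of core sites and 1.18% of farther sites.

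Few core one-strand windows held both an 8-mer and an element of broadly active promoters. Any of Motif 1, DRE, Motif 6 and Motif 7 lay in 66 core windows (21.1%), and 4 windows held one of these together with an 8-mer. Neither kind was found in 204 core windows. At the farther sites 77 windows held an 8-mer, 62 one of these elements and 9 both kinds. At sites with starts on both strands these counts were 24, 163 and 6. Each kind lay in a minority of core windows, an 8-mer in 47 of 313 (15%) and one of these elements in 21.1%, which limits the shared windows. Whether fewer were shared than the separate shares would give was not tested. Core sites with Motif 1, DRE, Motif 6 or Motif 7 had a median pooled signal of 111, and those without one 135. The summits of sites with an 8-mer had a median position of -108 bp, and those of sites with one of these 4 elements -59.5 bp. The strongest site with a DRE was Alg3 (682), followed by eEF1gamma, an elongation factor subunit gene (323, with 180 and 145 in replicates 1 and 2). Motif 1 lay at weaker sites, from 70.9 at Tapdelta to 152 at Cnx99A, the calnexin gene (90.9 and 60.9 in replicates 1 and 2). Other Motif 1 sites were deltaCOP, a coatomer subunit gene (113, with 74.4 and 48.1), and CG4098 (93.2, with 65.2 and 26.6).

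Elements with a fixed place at the start were counted along transcription. A TATA box (TATAAA beginning between -40 and -20) lay at 8 of 313 starts (2.56%, exact interval 1.11 to 4.97), against 6.07% of all 23697 annotated starts. The 8 starts included lncRNA:CR31044, RpL39 and the heat shock genes Hsp27 and Hsp83. An Inr (TCA followed by GTC, GTT, TTC or TTT, beginning between -7 and 3) lay at 24 (7.67%), against 9.0% of all starts. The shares among the comparison sites were 18.4% at one-strand sites farther from a start and 2.50% at sites with starts on both strands. A DPE (AGACGTG, with G allowed for its first A and T for its other A, beginning between 20 and 36) lay at 6 (1.92%), against 0.937% of all starts. The DPE share was higher at one-strand sites farther from a start (3.33%) and lower at sites with starts on both strands (0.535%). For the TATA box these shares were 4.56% and 2.32%. These shares were not tested.

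A TCT sequence (CTTT with a pyrimidine before and after it, beginning between -6 and 4) lay at 10 core starts (3.19%, exact interval 1.54 to 5.80), against 1.37% of all starts, 1.58% at the farther sites and 2.85% at sites with starts on both strands. Of these 10, 5 were ribosomal protein genes: RpL23A, RpS5a, RpL8, RpL7A and RpL39. With the limits widened by 10 bp on each side, the share at core starts was 8.63%. Wider limits admit more places for a match, and no share of other starts was counted with them. The 8.63% can therefore not be set against the shares above.

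Genes of cytoplasmic ribosomal proteins made up the largest of the gene lists counted at these sites. Of all 13968 protein-coding genes, 290 (2.08%) were the nearest gene of a core one-strand site. Of 91 cytoplasmic ribosomal protein genes 26 were (28.6%, exact interval 19.6 to 39.0). Counted separately, 28 of the 91 were nearest to a site with starts on both strands, and none to a one-strand site farther away. The 28 may include genes among the 26. Sites with starts on both strands had 557 distinct nearest genes of any kind, and the farther sites 542. With a strand window of 1000 bp the share at core one-strand sites was 15.4%, and among the strongest 1657 peaks it was 14.3%. The reproducible list is the same as that in which an excess of these genes was already known, so this count is no independent support for it.

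At ribosomal protein genes the summits were close to the start and the signals moderate. The 26 summits ran from -109 to 6 bp, with a median of -34.5 bp, and 21 were upstream. Pooled signals ran from 70.9 at RpL15 to 399 at RpL23A, with a median of 120. RpL23A had 210 in replicate 1 and 189 in replicate 2. RpS28b had 276 in the pooled list, 146 in replicate 1 and 132 in replicate 2, and RpS10b had 262, 161 and 105. All 3 lay above the list's median in both replicates.

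The elements at ribosomal protein sites were counted beside those of the other core sites. Of the 26 windows 17 held Motif 1, DRE, Motif 6 or Motif 7, and 1 held an 8-mer (RpL23A). A DRE lay in 9 of the 26 (34.6%), against 8 of the other 287 core windows (2.79%). CACTG lay in 10 (38.5%), against 53.0%, CGATA in 19 (73.1%), against 33.4%, Motif 6 in 7 (26.9%), against 7.67%, and Motif 7 in 4 (15.4%), against 5.57%. None held GAGAGAG, the E-box or the CTCF core, which lay in 14 (4.88%), 36 (12.5%) and 10 (3.48%) of the other 287 core windows. RpL27 held Motif 1, DRE, Motif 6 and Motif 7 together. These counts were made after the values were seen and were not tested. Without ribosomal protein genes in any class, the difference of the DRE from one-strand sites farther from a start was no longer called (odds ratio 2.39, adjusted Fisher's exact p = 0.176), while those of Motif 1, CGATA, Motif 7 and the E-box were (adjusted Fisher's exact p from 0.00944 to 0.0406).

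Translation factor genes followed, with 6 of 59 (10.2%, exact interval 3.82 to 20.8). They were eEF1gamma, eIF5B (pooled signal 260, 153 and 103 in replicates 1 and 2), eEF1alpha1 (222, 130 and 91.3), eIF3c (169, 97.3 and 67.0), eEF2 (129, 52.7 and 73.7) and eEF5 (109, 68.2 and 36.7). Replicate 2 was the higher one at eEF2 alone. Of 38 heat shock and chaperone genes 3 had a core one-strand site (7.89%, exact interval 1.66 to 21.4). These were Hsp27, Hsp83 (275, with 163 and 112) and Hsp26 (82.8, with 52.4 and 31.9), all with the summit 106 to 146 bp upstream.

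In the Polycomb and trithorax list 2 of 30 genes had such a site (6.67%, exact interval 0.818 to 22.1). The interval includes the 2.08% of all protein-coding genes. These 2 were the neighbouring polyhomeotic genes ph-p (78.7, with 45.7 and 38.9) and ph-d (103, with 48.8 and 53.3), both with the summit downstream of the start. The remaining lists with a site had 1 each. These were Trl among 21 boundary and architectural protein genes (174, with 114.5 and 57.8), Tm1, a tropomyosin gene, among 19 muscle genes (99.2, with 58.6 and 40.5), and mRpL41 among 73 mitochondrial ribosomal protein genes. The Wingless antagonist nkd was the one among 29 Hox, gap, pair-rule and segment polarity genes (110, with 48.1 and 61.5).

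No core one-strand site was found at 8 lists. These were 121 cuticle protein genes and 120 odorant and gustatory receptor genes, for which a count of 0 allows shares of up to 3.0% and 3.03% (exact binomial limits). They also were 89 genes of oxidative phosphorylation (up to 4.06%), 48 proteasome genes (7.40%), 45 cell cycle and replication genes (7.87%), 37 splicing factor genes (9.49%), 32 aminoacyl-tRNA synthetase genes (10.9%) and 20 neuronal genes (16.8%). All these limits lie above the 2.08% of all protein-coding genes, so a lower share is not shown for any of them.

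**Figure D5:**
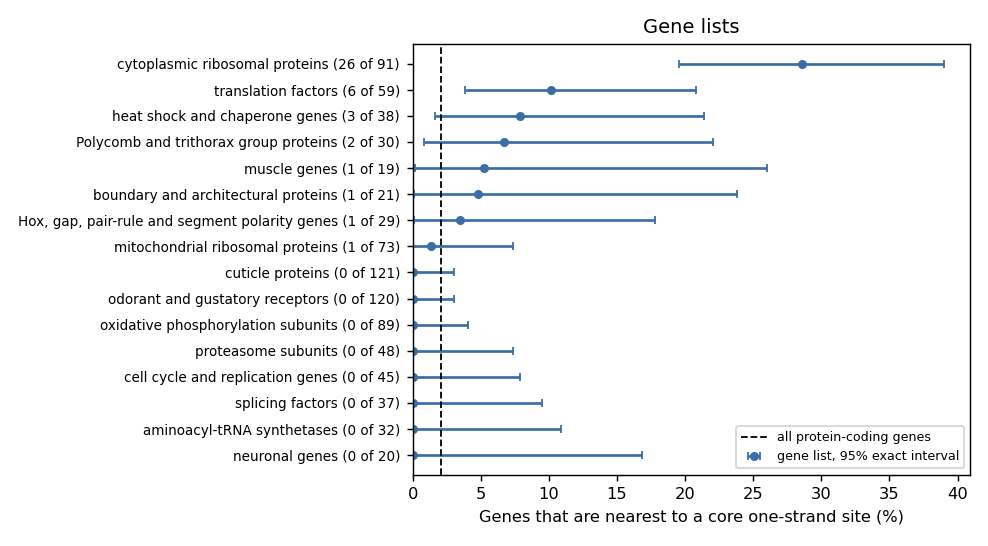
Share of each gene list that is nearest to a core one-strand site (x axis, %), with 95% exact binomial intervals; the dashed line is the 2.08% of all protein-coding genes. With the strand window of 500 bp used here, the interval of cytoplasmic ribosomal proteins (19.6 to 39.0) and that of translation factors (3.82 to 20.8) lie above the line.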

How the data were processed

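Per the labels, ChIP-seq of CG30431-GFP embryos (0 to 24 h, 2 biological replicates, fragments of 200 to 800 bp) gave the peak lists used. Per the deposited readme, the authors made a dm6 list of 30000 entries from each replicate's alignment and a control alignment, 1 from both replicates pooled, and from these the reproducible list by irreproducible discovery rate. Which aligner and peak caller produced them is not given in the sources used here. The authors deposited a signal value per peak (scale not stated) and the −log10 of a q-value, which ran from 2.35 to 3.57 in the reproducible list and was not used further. The lists hold no counts, so depth per sample is unknown; intervals cover the number of sites or genes only.

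Summits were set against Ensembl release 115 starts (BDGP 6.54, transposable elements left out). A replicate's value for a site was that of its strongest entry holding the summit. Classes were compared by two-sided Fisher's exact tests, with Benjamini-Hochberg adjustment over 11 tests of shares and, separately, 32 of elements, and a threshold of 0.05; sequence directions, fixed-place elements and 16 gene lists were described with exact Clopper-Pearson intervals. A list's share counts genes that are the nearest gene of a site. Two-strand and one-strand calls, distance limits, windows, replicates and peak strength were varied, as given in the closing section. The sites, elements and lists were chosen with earlier results of these data known. Named genes are those of the 20 strongest sites found in both replicates, the 3 strongest of each list with 3 or more sites, the 2 sites just inside and just outside 150 bp, and those whose sequence is shown; other named genes were chosen after their values were seen. RpL37-1 and RpL37-2 were added to the ribosomal protein list after a first count. In the lists 5 names matched no gene symbol. The classification and tests were checked on simulated data. Tables were handled in pandas 2.3.3 and numpy 2.4.6, tests came from scipy 1.17.1 and plots from matplotlib 3.10.9, under Python 3.11.15.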

Additional observations from a re-analysis of the deposited data

How the results depend on the processing

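Of 356 recomputed values, 275 kept their direction and their side of the threshold (or, for counts and shares with no test, stayed near the first value), 35 were no longer called, 7 became called, 21 changed direction and 18 moved. Where a call or direction changed, the cause was not tested. With the start at most 100 bp away there were 183 sites. The odds ratio of an upstream summit was then 0.529 against one-strand sites farther from a start (adjusted Fisher's exact p = 0.0282) and 0.688 against sites with starts on both strands. Above-median signal against the farther sites had an odds ratio of 0.656. Presence in both replicates had odds ratios of 0.921 and 0.972 against these classes, protein-coding genes 1.58, and 4 elements differed from sites with starts on both strands. With the start at most 200 bp away the odds ratios against the farther sites were 1.26 for an upstream summit and 0.960 for presence in both replicates, and 3 elements differed. With a strand window of 300 bp they were 0.404 and 0.987 for the side, 0.679 for above-median signal against the farther sites, and 0.811 and 0.800 for presence in both replicates. With 1000 bp the side against the farther sites was at 1.75, above-median signal in replicate 2 at 1.003, and the ribosomal protein share was 15.4%.

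In the strongest 1657 peaks, 168 sites remained, no element was called against either class (0 and 0, with 3 and 6 at an unadjusted Fisher's exact p under 0.05), and the ribosomal protein share was 14.3%. Odds ratios of above-median signal against sites with starts on both strands were 1.02 in the pooled list, 1.16 in replicate 1 and 1.05 in replicate 2. Leaving out 1 replicate gave odds ratios of 0.805 to 0.948 for an upstream summit against sites with starts on both strands. With protein-coding starts only that ratio was 0.969, and presence in both replicates was at 0.974 and 0.971. With any overlap in place of the summit it was at 0.887 and 0.993. With 50 bp on each side 5 elements differed from sites with starts on both strands, and with the widened limits the TCT share was 8.63%. In windows set 75 bp before the start the E-box was at 0.961 (adjusted Fisher's exact p = 0.95). None of the comparisons of presence in both replicates was called under any setting in which it was computed, which leaves out the lists of single replicates. No odds ratio could be given where the comparison class held no window or no site of the other kind: Motif 1 with the start within 200 bp, Motif 1 and TCTCAGTG with 50 bp on each side, and presence in both replicates in the strongest 1657 peaks. With protein-coding starts only the share of coding genes has no comparison. No paired analysis was possible because the study has 1 group. The lists give no counts, so what depth limits could not be assessed.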

Other observations

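Outside the reproducible peaks, the pooled list held a further 1173 entries whose summits met the definition of a core one-strand site. Of these, 0 had a summit inside one of the 3314 strongest peaks of both replicates. The reproducible list is the same as the 3314 strongest entries of the pooled list. A count near 0 was therefore largely set in advance and cannot show that no site was missed. The authors also deposited lists on the older build dm3, with 3245 reproducible peaks, which were not used here. The study has 1 group of 2 samples, so neither a sample apart from its group nor a difference between groups was looked for.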
